A study of Mus musculus with 2 samples.

Results

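The genes described here are 10 members of the Wnt/β-catenin pathway that act in blood vessels with a barrier: Lef1, Apcdd1, Axin2, Nkd1, Fzd4, Fzd6, Tspan12, Lrp5, Ctnnb1 and Reck. All 10 of 10 were found by Ensembl ID among the 27040 genes listed for both libraries of the study. The libraries were made from the stria vascularis, the blood-vessel-rich tissue of the lateral wall of the cochlea, of Tie2-GFP mice and of NG2-DsRed mice, both aged 1 to 3 months. GFP is driven by the promoter of Tek (Tie2), an endothelial receptor gene, and DsRed by that of Cspg4 (NG2), a pericyte gene. Each library pooled the tissue of 10 mice, or 20 cochleae, and labelled cells were sorted where needed before loading on the 10x Chromium 3′ platform. The study used males and females, and the sex of the mice in each library is not given. No treatment or further allele is given for either line. With 1 library per line no test between lines or cell classes was possible, so all values below are estimates with intervals that cover counting error only.

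In the canonical Wnt pathway a ligand brings together a Frizzled receptor and an LRP5 or LRP6 co-receptor, which stops the destruction of β-catenin. The stabilized β-catenin enters the nucleus, binds LEF1 or a TCF factor and raises the transcription of target genes, some of which, such as Axin2, Nkd1 and Apcdd1, encode inhibitors of the same pathway. In the vessels of the brain and retina this pathway induces and maintains the blood barrier. Norrin signals there through FZD4, LRP5 and TSPAN12, and WNT7A or WNT7B through a Frizzled receptor together with RECK and ADGRA2 (GPR124).

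Unique molecular identifiers (UMIs) were counted in 633 barcodes of the Tie2-GFP library (5432289 UMIs) and in 201 barcodes of the NG2-DsRed library (1232599 UMIs), and no barcode sequence occurred in both. Endothelial barcodes had a UMI of at least 4 of 6 genes (Pecam1, Cdh5, Cldn5, Flt1, Egfl7 and Ramp2). Mural barcodes, which hold pericytes and smooth muscle cells, had at least 3 of 4 genes (Pdgfrb, Rgs5, Vtn and Notch3) and at most 1 endothelial gene. Intermediate barcodes, those of the pigmented cells of the stria, had Dct, Tyr and Kcnj10. The rules gave 379 endothelial and 87 intermediate barcodes in the Tie2-GFP library, and 58 endothelial, 97 mural and 23 intermediate barcodes in the NG2-DsRed library. The 4 mural barcodes of the Tie2-GFP library were too few to compare. In the NG2-DsRed library 2 barcodes that met both the endothelial and the intermediate rule were left out. Median depth was 7431 and 9146 UMIs in the endothelial, 3027 in the mural and 15955 and 10383 in the intermediate barcodes, the Tie2-GFP library first.

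Markers outside the rule were checked in each class. All 8 further endothelial and all 8 further mural markers had a UMI in the endothelial barcodes of both libraries. Detection alone thus did not set the classes apart, and summed levels are given in CPM (UMIs of the gene per 1000000 UMIs of the class). In Tie2-GFP and NG2-DsRed the endothelial markers summed to 3403 and 3092 CPM in endothelial and 34.2 and 24.5 CPM in intermediate barcodes. The mural markers summed to 9680 CPM in the mural barcodes. The 6 pigment-cell markers summed to 4319 and 3719 CPM in intermediate barcodes, with Tyrp1 at 0, and to 12.5 and 24.5 CPM in endothelial and 30.1 CPM in mural ones. The mural barcodes had Kdr and Tek at 0 and a summed level of the endothelial markers of 731 CPM, of which 469 CPM were Esam. Of the 58 endothelial barcodes of the NG2-DsRed library, 42 also carried at least 2 of the 4 mural genes, and the summed level of the 8 mural markers was 1647 CPM there against 207 CPM in the Tie2-GFP endothelial barcodes. The erythroid markers, 4 haemoglobin genes, summed to 2901 CPM in the Tie2-GFP endothelial barcodes. Intermediate barcodes also held markers of other strial cells. In Tie2-GFP the 5 marginal-cell markers summed to 3516 CPM, of which Slc12a2 was 3309 CPM, beside 4319 CPM for the 6 pigment-cell markers. In Tie2-GFP and NG2-DsRed the 3 basal-cell markers summed to 577 and 816 CPM, led by Gjb2. The mitochondrial limit of 5% set in the study was exceeded by 79 of 87 and 16 of 23 intermediate barcodes. What part these differences have in the values of the members was not tested.

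**Figure D1:**
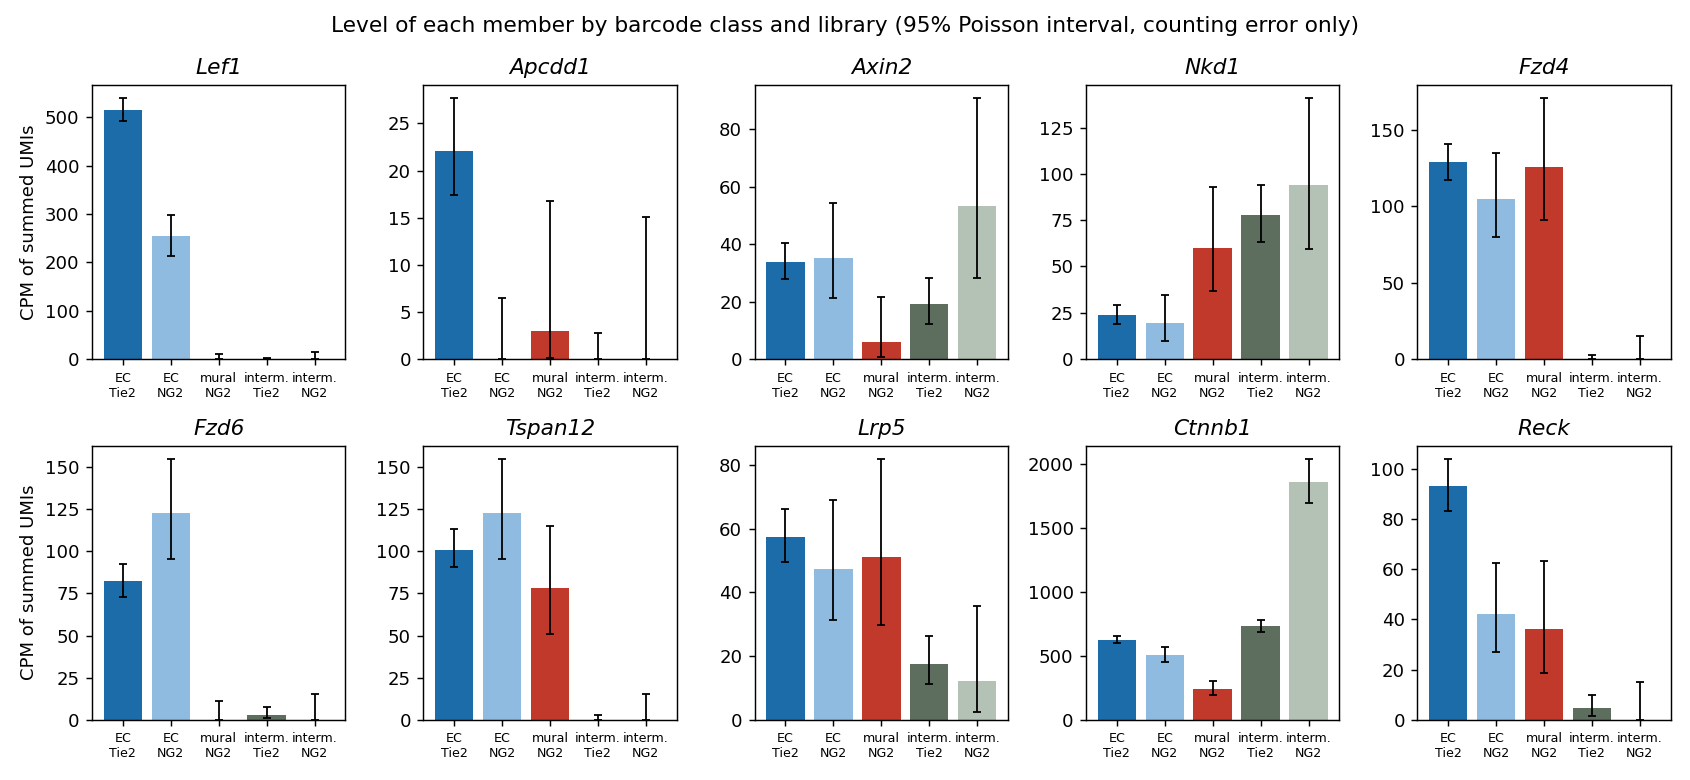
Level of each of the 10 genes in CPM of summed UMIs (vertical axes, linear, each with its own scale) in endothelial (EC), mural and intermediate (interm.) barcodes of the Tie2-GFP and NG2-DsRed libraries, with exact Poisson intervals at 95% for counting error only. Lef1 stood at 516 and 254 CPM in the endothelial barcodes of the libraries and at 0 in the other 3 sets, whereas Nkd1 was lowest in the endothelial barcodes and Ctnnb1 reached 1866 CPM in the intermediate barcodes of NG2-DsRed.

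Lef1 (chr3:131110471-131224356, plus strand, GRCm38), the nuclear partner of β-catenin, was found in endothelial barcodes only among the 3 classes. It had 1771 UMIs in the Tie2-GFP endothelial barcodes, or 516 CPM (492 to 540.3), and 145 UMIs, or 254 CPM (214 to 299), in those of NG2-DsRed. No UMI of Lef1 was counted in the 97 mural barcodes or in the 87 and 23 intermediate barcodes of the libraries, which allows up to 9.03, 2.28 and 12.2 CPM. A gene on the opposite strand of Lef1, Gm43352, had 43 UMIs in the whole Tie2-GFP library and 1 in that of NG2-DsRed.

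The negative feedback targets differed from each other in their pattern. Apcdd1 (chr18:62922231-62961179), which encodes a membrane-bound inhibitor of Wnt signalling, had 76 UMIs in the Tie2-GFP endothelial barcodes, or 22.1 CPM (17.4 to 27.7), and 0 in those of NG2-DsRed, which allows up to 5.26 CPM. It had 1 UMI in the mural barcodes of NG2-DsRed and 0 in the intermediate barcodes of both libraries. The 4 mural barcodes of Tie2-GFP, too few to compare, had 2 UMIs of Apcdd1, or 162 CPM (19.6 to 585). Axin2 (chr11:108920349-108950783), a scaffold of the complex that destroys β-catenin, stood at 33.8 CPM (27.9 to 40.5) and 35.0 CPM (21.4 to 54.1) in the endothelial barcodes of Tie2-GFP and NG2-DsRed. Axin2 had 2 UMIs in the mural barcodes, and 19.0 CPM (12.3 to 28.1) and 53.1 CPM (28.3 to 90.8) in the intermediate barcodes. Its endothelial and intermediate intervals overlapped in NG2-DsRed. In Tie2-GFP they met only at their ends, and the interval of the ratio, given below, did not hold 0. Nkd1 (chr8:88521354-88594884), which binds Dishevelled and dampens the signal, was lowest in the endothelial barcodes. It was at 23.6 CPM (18.7 to 29.3) and 19.3 CPM (9.62 to 34.5) in the endothelial barcodes, at 60.2 CPM (36.8 to 92.9) in the mural barcodes, and at 77.6 CPM (63.3 to 94.2) and 93.9 CPM (59.5 to 141) in the intermediate barcodes. The mural and intermediate intervals of Nkd1 overlapped each other, and none of them overlapped an endothelial one.

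Among the receptors, Fzd4 and Fzd6 had different cell classes. Fzd4 (chr7:89404355-89413134), the Frizzled that binds Norrin, was at 129 CPM (117 to 141) and 105 CPM (80.2 to 135) in the endothelial barcodes and at 126 CPM (91.1 to 171) in the mural barcodes, with overlapping intervals. No UMI of it was counted in the 87 and 23 intermediate barcodes. Fzd6 (chr15:39006034-39038188), another Frizzled, was at 82.4 CPM (73.1 to 92.6) and 123 CPM (95.6 to 155) in the endothelial barcodes and had no UMI in the mural barcodes. It had 4 UMIs in the intermediate barcodes of Tie2-GFP and 0 in those of NG2-DsRed. A gene antisense to Fzd6, Gm26704, had 72 UMIs in the Tie2-GFP library and 1 in that of NG2-DsRed.

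The co-receptor genes were present in both endothelial and mural barcodes. Tspan12 (chr6:21771395-21852515), whose product enhances Norrin signalling through FZD4, was at 101 CPM (91.0 to 113) and 123 CPM (95.6 to 155) in the endothelial and at 78.2 CPM (51.1 to 115) in the mural barcodes. Like Fzd4 it had 0 UMIs in the intermediate barcodes of both libraries. Lrp5 (chr19:3584828-3686564), the co-receptor, was at 57.4 CPM (49.6 to 66.0), 47.3 CPM (31.2 to 68.8) and 51.2 CPM (29.8 to 81.9) in the same 3 sets, all overlapping, and at 17.5 CPM (11.1 to 26.3) and 12.2 CPM (2.53 to 35.8) in the intermediate barcodes. Reck (chr4:43875530-43944806), which recognizes WNT7 ligands at the cell surface, was at 93.2 CPM (83.2 to 104) in the Tie2-GFP endothelial barcodes. Its levels of 42.0 CPM (26.9 to 62.6) in the NG2-DsRed endothelial and 36.1 CPM (18.7 to 63.1) in the mural barcodes overlapped each other and lay below that interval. It had 6 UMIs, or 4.57 CPM (1.68 to 9.94), in the Tie2-GFP intermediate barcodes and 0 in the others.

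Ctnnb1 (chr9:120929216-120960507), which encodes β-catenin itself, also a component of adherens junctions, was present in every class. It was lowest in the mural barcodes, at 244 CPM (194 to 303). The endothelial levels were 628 CPM (601 to 655) in Tie2-GFP and 509.8 CPM (453 to 572) in NG2-DsRed. The intermediate levels were 734 CPM (688 to 781) and 1866 CPM (1698 to 2045), the widest gap between libraries within a class for this gene. Of the genes that overlap Ctnnb1 on the opposite strand, Ulk4 had 168 UMIs in the Tie2-GFP library and 3 in that of NG2-DsRed.

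The promoters of 7 members were searched for the heptamer that LEF1 and TCF factors prefer, spelled CTTTGAA, or CTTTGAT, or CTTTGTA, or CTTTGTT, on either strand, in RefSeq windows of GRCm38.p6 from 250 bases before to 50 bases after each start. A match was found in 2 of 11 windows, or 18.2%, against 16.9% of 32851 windows of all genes. Both matching stretches are shown, as they belong to genes that differed between classes, with the heptamer in capitals. The Lef1 stretch (chr3:131156102-131156198, plus strand) lies before a start inside the gene, with the heptamer 147 bases before it, and that of Reck (chr4:43875364-43875460, plus strand) has it 121 bases before the start.
Lef1: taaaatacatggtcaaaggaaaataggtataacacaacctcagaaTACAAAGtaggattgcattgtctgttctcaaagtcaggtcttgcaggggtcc
Reck: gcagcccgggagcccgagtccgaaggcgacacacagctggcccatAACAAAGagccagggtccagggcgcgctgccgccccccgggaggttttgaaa
A match is a description of the letters in these windows, and no binding was measured.

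To ask which members set endothelial apart from mural cells, the set with the most UMIs of each of these classes was compared, with a gene counted as higher or lower past 2-fold when it had at least 10 UMIs over both classes. A class with no UMI was taken at 3 UMIs, and the fold is then a lower bound that leaves out the counting error of the other class. Of the 10 members, 6 were higher in the Tie2-GFP endothelial barcodes (16.3% of 10993 genes were), 1 was lower (26.8% of genes) and 3 were neither. The median log2 ratio was 1.37 over the members and -0.25 over all genes. Lef1 was at least 57.1-fold and Fzd6 at least 9.13-fold higher in endothelial barcodes. Reck was 2.58-fold higher (log2 1.37, interval 0.54 to 2.34) and Ctnnb1 2.57-fold higher (1.36, 1.04 to 1.70). The ratios of Apcdd1 (log2 2.88, 0.36 to 8.20) and Axin2 (2.49, 0.60 to 5.55) rest on 1 and 2 mural UMIs. Nkd1 was 2.55-fold lower in endothelial barcodes (log2 -1.35, -2.07 to -0.57). For Fzd4 (log2 0.03, -0.43 to 0.52), Tspan12 (0.37, -0.20 to 1.01) and Lrp5 (0.17, -0.55 to 0.97) the intervals held 0.

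That comparison crosses the libraries, and cell class, reporter line and software version cannot be told apart in it, so it was repeated with both classes of the NG2-DsRed library. There 4 of the 9 members with enough UMIs were higher in endothelial barcodes (14.6% of 8841 genes), 1 was lower (19.9%) and 4 were neither. Lef1 (at least 28.1-fold), Fzd6 (at least 13.6-fold), Axin2 (log2 2.54, 0.50 to 5.68) and Ctnnb1 (1.06, 0.70 to 1.44) were higher and Nkd1 was lower (-1.64, -2.85 to -0.51). Reck was not past 2-fold within the library (log2 0.22, -0.84 to 1.35), and Apcdd1 had 1 UMI in all. With the 16 endothelial barcodes that carried at most 1 mural gene, the log2 ratio was at least 4.95 for Lef1 and at least 3.54 for Fzd6. In the same 16 barcodes it was 0.84 for Ctnnb1, which was then within 2-fold, and 1.12 for Reck, which was then past it. With stricter classes, which asked for all 6 endothelial genes or for all 4 mural and no endothelial genes, the log2 ratio of Reck was -0.33.

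**Figure D2:**
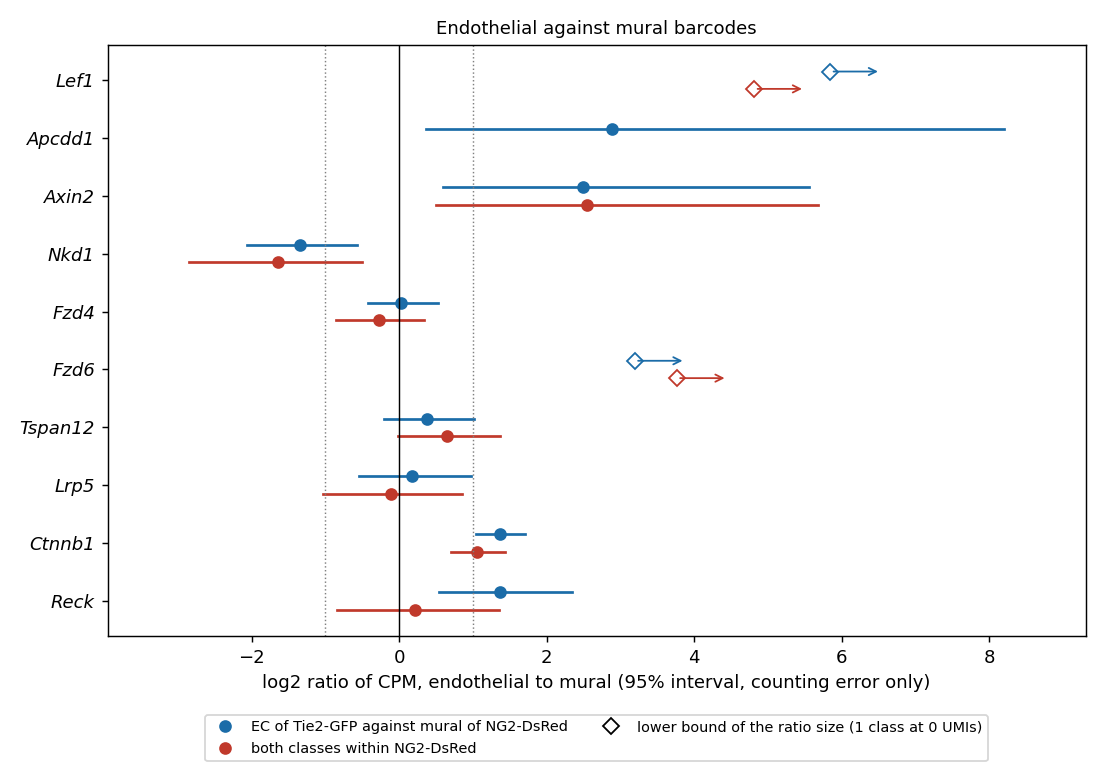
Log2 ratio of CPM of endothelial to mural barcodes for the 10 genes (horizontal axis), across the libraries in blue and within NG2-DsRed in red. Filled points have intervals at 95% for counting error only, open diamonds with arrows are lower bounds where mural barcodes had no UMI, and dotted lines mark 2-fold. Lef1 and Fzd6 lie furthest right in both, at bounds of at least 57.1-fold and 9.13-fold across libraries, and Nkd1 lies left of 0 in both.

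Against the intermediate cells, a neighbouring cell type captured in the same library, most members differed past 2-fold. Within Tie2-GFP 7 of 10 members were higher in endothelial barcodes (28.1% of 11688 genes), 1 was lower (20.6%) and 2 were neither, and the median log2 ratio was 3.81 over the members and 0.17 over all genes. Lower bounds were 226-fold for Lef1, 56.4-fold for Fzd4, 44.4-fold for Tspan12 and 9.69-fold for Apcdd1. Fzd6 was 27.1-fold (log2 4.76, 3.39 to 6.64), Reck 20.4-fold (4.35, 3.21 to 5.81) and Lrp5 3.28-fold higher (1.71, 1.09 to 2.40). Nkd1 was 3.29-fold lower (log2 -1.72, -2.16 to -1.28). Axin2 (log2 0.83, 0.20 to 1.51) and Ctnnb1 (-0.23, -0.34 to -0.11) stayed within 2-fold. The 6 intermediate barcodes within the study's limits gave smaller bounds, on the log2 scale 4.29 for Lef1, 2.29 for Fzd4, 1.93 for Tspan12 and 1.65 for Fzd6, and a log2 ratio of 2.40 for Reck on 2 intermediate UMIs, while Apcdd1 had no bound there.

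The same contrast within NG2-DsRed, added after the data had been seen, gave 6 of 9 members higher (26.9% of 8353 genes), 2 lower (18.0%) and 1 neither. Fzd6 and Tspan12 were at least 10.0-fold, Lef1 at least 20.7-fold, Fzd4 at least 8.58-fold and Reck at least 3.43-fold higher. Lrp5 was also higher (log2 1.95, 0.25 to 4.31) and Nkd1 lower (-2.28, -3.47 to -1.19). Ctnnb1 was 3.66-fold lower in endothelial than in intermediate barcodes here (log2 -1.87, -2.09 to -1.66), a larger ratio than in Tie2-GFP. The sign of the Axin2 ratio (log2 -0.60, -1.68 to 0.53) was opposite to that in Tie2-GFP, with an interval that held 0 and with 12 of the 13 intermediate UMIs in barcodes over the mitochondrial limit.

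**Figure D3:**
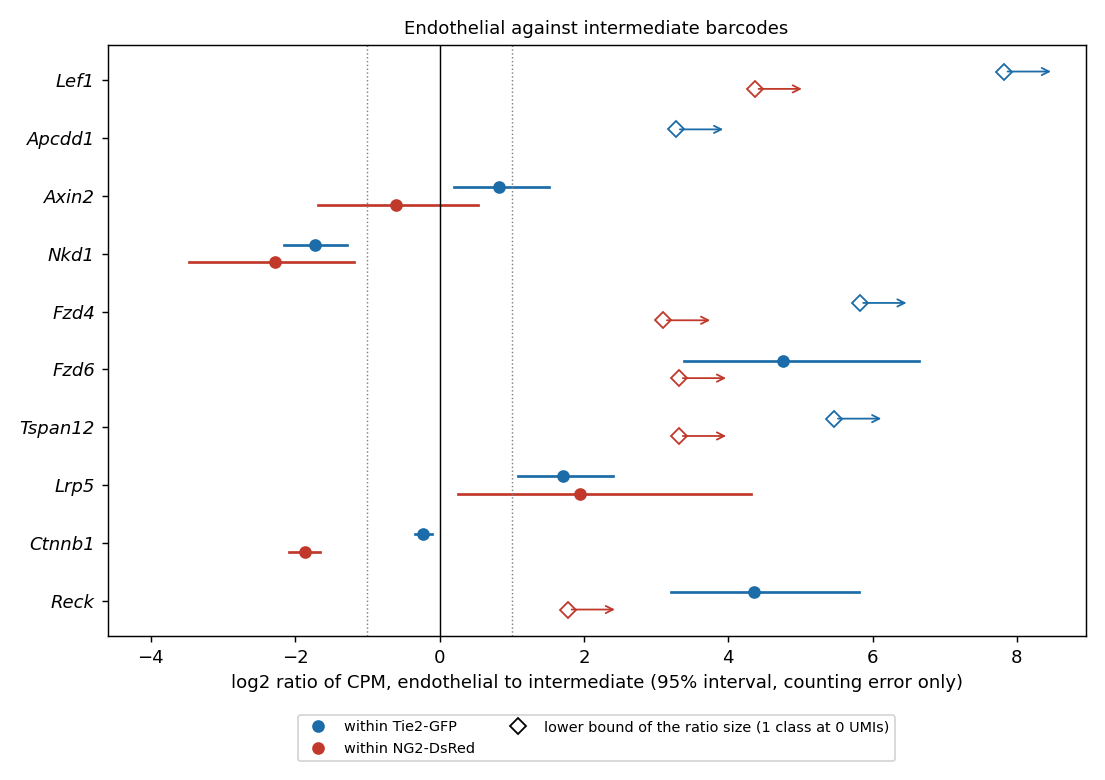
Log2 ratio of CPM of endothelial to intermediate barcodes for the 10 genes (horizontal axis), within Tie2-GFP in blue and within NG2-DsRed in red, with intervals at 95% for counting error only, lower bounds as open diamonds and dotted lines at 2-fold. The receptors and Lef1 lie to the right in both libraries, Nkd1 to the left in both, and Ctnnb1 at -0.23 and -1.87.

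Mural and intermediate barcodes of NG2-DsRed differed in the receptor genes as well. Of the 7 members with enough UMIs, 4 were higher in mural barcodes (29.0% of 7626 genes), 2 were lower (17.1%) and 1 was neither. Fzd4 was at least 10.3-fold, Tspan12 at least 6.39-fold and Reck at least 2.95-fold higher, and Lrp5 4.18-fold (log2 2.06, 0.27 to 4.48). Ctnnb1 was 7.65-fold lower in mural barcodes (log2 -2.94, -3.30 to -2.59), and so was Axin2 (-3.14, -6.33 to -1.0, on 2 mural UMIs). Of the 13 intermediate UMIs of Axin2, 12 were in the 16 barcodes over the mitochondrial limit (80.4 CPM) and 1 in the 7 within the study's limits (10.4 CPM). With barcodes within these limits the log2 ratio of Axin2 was -0.74 and the bound for Reck 0.26, so neither passed 2-fold, while the bounds were 2.07 for Fzd4 and 1.32 for Tspan12 and Ctnnb1 was at -3.36.

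Seen barcode by barcode, the median number of members with a UMI was 5 of 10 in the Tie2-GFP endothelial barcodes, 4 in those of NG2-DsRed, 1 in mural and 2 in both sets of intermediate barcodes. At least 5 members were found in 217 of 379 Tie2-GFP endothelial barcodes (57.3%), in 26 of 58 of NG2-DsRed (44.8%), in 1 of 97 mural barcodes (1.03%) and in 2 of 87 and 0 of 23 intermediate barcodes. These counts and shares move with depth, which was lowest in the mural barcodes, and they were not computed at equal depth. For single members the share expected at 2000 UMIs per barcode was computed as well. In the Tie2-GFP endothelial barcodes Lef1 was found in 87.3% of barcodes (83.6 to 90.5), from 0 to 25 UMIs with a median of 4, and in 59.1% at 2000 UMIs, where 17 shallower barcodes were left out. In NG2-DsRed endothelial barcodes the share was 74.1% (61.0 to 84.7), and 37.9% at 2000 UMIs. In mural barcodes, 0 of 97 had Lef1, which by a limit of 3 counts allows up to 3.09% of barcodes with a UMI at their own depth and sets no limit on cells that express it.

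For Fzd4 the lower share in mural barcodes was not seen at equal depth. It was found in 54.9% of Tie2-GFP endothelial (49.7 to 60.0), 51.7% of NG2-DsRed endothelial (38.2 to 65.0) and 30.9% of mural barcodes (21.9 to 41.1), but at 2000 UMIs in 21.6%, 16.0% and 22.5%, close to each other as its CPM were. Tspan12 was found in 48.0%, 60.3% and 19.6% of the same sets and at equal depth in 17.5%, 23.1% and 14.7%. The 19 mural barcodes with fewer than 2000 UMIs were left out of these values. Ctnnb1 was found in 94.2%, 98.3% and 50.5% of the same sets and at equal depth in 68.7%, 66.2% and 37.3%, lowest in mural barcodes either way. Of the intermediate barcodes, 0 of 87 in Tie2-GFP had Lef1, Apcdd1, Fzd4 or Tspan12, although they were the deepest class, which allows up to 3.45% of barcodes with a UMI for each.

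The endothelial barcodes of the libraries could be compared with each other, although reporter line and software version cannot be told apart there. In Tie2-GFP 3 of 10 members were higher past 2-fold than in NG2-DsRed (11.0% of 10885 genes) and 0 were lower (16.2%). They were Lef1 (2.03-fold, log2 1.02, 0.78 to 1.28), Reck (2.22-fold, 1.15, 0.55 to 1.81) and Apcdd1 (at least 4.21-fold). Fzd6 differed in the other direction by less (log2 -0.57, -0.96 to -0.17). Lef1, Reck and Fzd6 were also set out by the number of mural genes in a barcode, whose part in these values was not tested. In Tie2-GFP the sets with at most 1 and at least 2 mural genes differed in median depth as well, at 7233 and 17452 UMIs. Lef1 was at 543 CPM (516 to 570.3) in the 347 Tie2-GFP endothelial barcodes with at most 1 mural gene and at 372 CPM (322 to 427) in the 32 with at least 2. The same division gave 99.6 CPM (88.4 to 112) and 58.9 CPM (40.3 to 83.2) for Reck. In NG2-DsRed, Lef1 was at 279 CPM (191 to 394) in the 16 endothelial barcodes with at most 1 mural gene and at 248 CPM (204 to 298) in the 42 others, with both intervals below that of the 347 barcodes of Tie2-GFP. Reck was at 78.5 CPM (35.9 to 149) in those 16 and at 32.9 CPM (18.4 to 54.2) in the 42. Fzd6 was at 87.5 CPM (77.1 to 99.0) in the 347 and 55.2 CPM (37.3 to 78.8) in the 32 barcodes of Tie2-GFP. In NG2-DsRed Fzd6 was at 105 CPM (54.1 to 183) in the 16 and 127 CPM (96.5 to 164) in the 42. For the intermediate barcodes, 2 of 4 members with enough UMIs were lower in Tie2-GFP than in NG2-DsRed (14.8% of 8919 genes) and 0 were higher (11.1%). These were Axin2 (2.79-fold, log2 -1.48, -2.50 to -0.39) and Ctnnb1 (2.54-fold, -1.35, -1.51 to -1.18).

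Along the vessel axis, Reck was the 1 member past 2-fold. Of the Tie2-GFP endothelial barcodes, 46 were arterial-leaning, with at least 2 of 6 arterial genes (Gja4, Gja5, Bmx, Sema3g, Vegfc and Hey1) and 0 venous ones, and 38 were venous-leaning, with at least 2 of 5 venous genes (Nr2f2, Slc38a5, Vcam1, Ephb4 and Ackr1) and 0 arterial ones. Reck was at 56.5 CPM (35.4 to 85.6) in arterial-leaning and 150.3 CPM (113 to 196) in venous-leaning barcodes, 2.66-fold lower in the former (log2 -1.41, -2.20 to -0.67), and at 90.7 CPM (79.7 to 103) in the remaining 295. It was found in 12 of 46 arterial-leaning and 28 of 38 venous-leaning barcodes, and at 2000 UMIs the shares were 9.91% and 25.5%. A count of 1 of 10 members lower in arterial-leaning barcodes is near the share over all genes (7.87% of 7383), and 0 were higher (7.34%). Lef1 was also lower, within 2-fold, at 473 CPM against 629 CPM (log2 -0.41, -0.70 to -0.13), and for the other 8 members the interval of the ratio held 0.

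**Figure D4:**
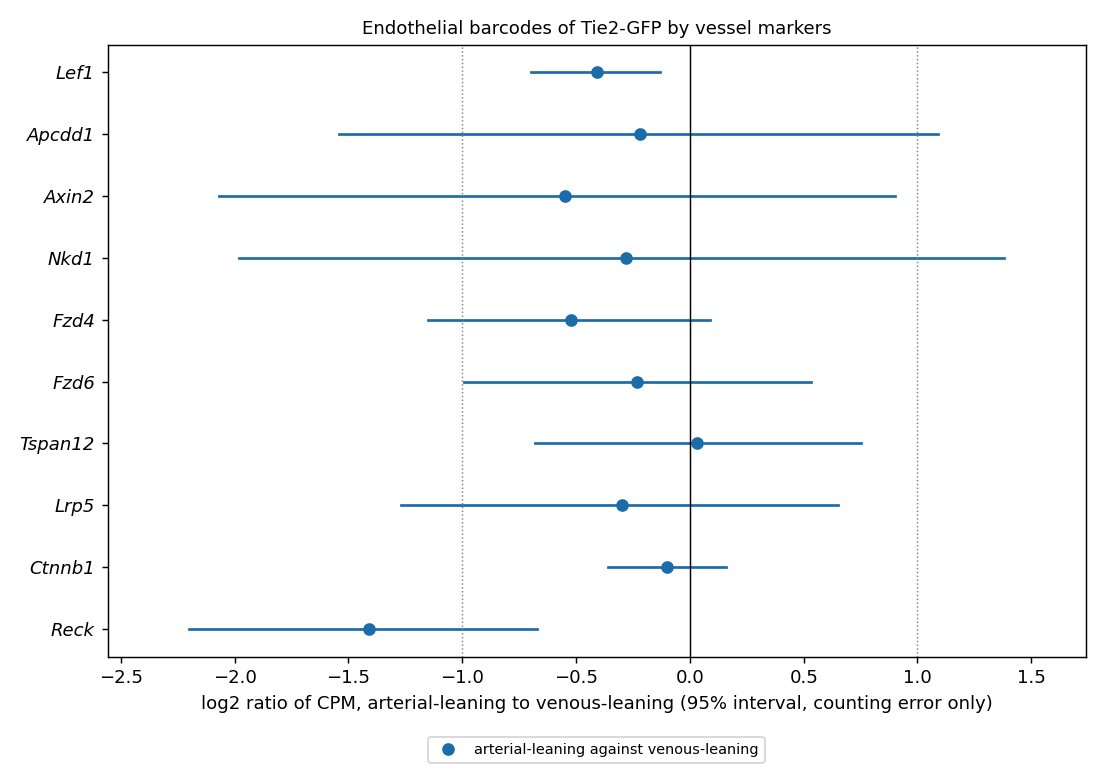
Log2 ratio of CPM of arterial-leaning to venous-leaning endothelial barcodes of Tie2-GFP for the 10 genes (horizontal axis), with intervals at 95% for counting error only and dotted lines at 2-fold. Reck lies at -1.41 and is the only gene beyond the dotted lines, and the interval of Lef1, at -0.41, does not reach 0.

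Within the mural barcodes the members had too few UMIs for narrow intervals. Contractile barcodes, the 40 with at least 2 of Acta2, Tagln, Myh11 and Pln, were set against the other 57. Of 6 members with enough UMIs, 2 were higher in contractile barcodes (10.4% of 5689 genes) and 0 were lower (15.9%). The level of Nkd1 was 79.4 CPM in contractile and 38.5 CPM in other mural barcodes (log2 1.05, -0.42 to 2.71). Lrp5 stood at 73.7 and 25.6 CPM (log2 1.52, -0.17 to 3.60). Fzd4 had 90.7 CPM against 167 CPM (log2 -0.88, -1.87 to 0.08). All 6 intervals held 0.

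Few ligand genes had enough UMIs to compare. Of 23 genes for Wnt ligands, Norrin and R-spondins, which enhance Wnt signals, 4 had enough UMIs to compare endothelial with mural barcodes across libraries, 2 of them lower and none higher in endothelial barcodes, where the shares over all genes were 26.8% and 16.3%. Ndp, the gene for Norrin, had 1 UMI in the Tie2-GFP endothelial and 3 in the NG2-DsRed intermediate barcodes and none in the other sets, and Wnt7a and Wnt7b had none in any of the 5 sets. Wnt5a, a ligand best known for signals that do not use β-catenin, was at 323 and 318 CPM in the intermediate barcodes of Tie2-GFP and NG2-DsRed and at 1.46 and 3.50 CPM in the endothelial ones, 222-fold lower within Tie2-GFP (log2 -7.80, -9.43 to -6.56). Across libraries Wnt5a was also lower past 2-fold in endothelial than in mural barcodes. Within Tie2-GFP, 4 ligand genes had enough UMIs to compare endothelial with intermediate barcodes. Of these, Wnt4 was higher in endothelial barcodes (28.1% of all genes) and 2 were lower (20.6%). Wls, which carries Wnt ligands to the cell surface, was at 262 CPM in mural and 288 and 265 CPM in intermediate barcodes against 52.4 and 45.5 CPM in endothelial ones. Wnt5b, added here after its values were seen as the ligand gene with the most endothelial UMIs, was at 27.1 and 52.6 CPM in endothelial, 33.1 CPM in mural and 16.0 and 12.2 CPM in intermediate barcodes. Rspo1 had 25 UMIs in mural barcodes (75.2 CPM), 6 in the NG2-DsRed endothelial barcodes and none in those of Tie2-GFP.

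Partners of the member receptors differed in their distribution. Adgra2, the partner of Reck, was at 49.2 and 45.5 CPM in endothelial and 111 CPM in mural barcodes, 2.26-fold lower in endothelial barcodes across libraries (log2 -1.18, -1.70 to -0.62) and 2.44-fold lower within NG2-DsRed (-1.29, -2.07 to -0.53), and had no UMI in intermediate barcodes. Lrp6, the paralogue of Lrp5, was in every class, from 60.6 to 120.4 CPM. The list of receptor genes outside the members, Adgra2 and Lrp6 included, had 14 with enough UMIs. Of these, 1 was higher and 6 were lower in Tie2-GFP endothelial than in mural barcodes (16.3% and 26.8% of all genes). Within NG2-DsRed 0 of 9 were higher and 5 were lower (14.6% and 19.9% of all genes). Against the intermediate barcodes of Tie2-GFP 7 of the 14 were higher and 2 lower (28.1% and 20.6% of all genes). Znrf3, a ubiquitin ligase that removes Frizzled receptors and is itself induced by the pathway, was the 1 higher than in mural barcodes across libraries (30.0 against 9.03 CPM, log2 1.73, 0.14 to 4.03). However, Znrf3 had 8.76 CPM in the endothelial barcodes of NG2-DsRed.

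Cytoplasmic and nuclear components went in both directions, in lists too short to set apart from all genes, of which 16.3% were higher and 26.8% lower across libraries and 14.6% higher and 19.9% lower within NG2-DsRed. Of 16 genes of the transduction list, 3 were higher and 5 lower in Tie2-GFP endothelial than in mural barcodes, and within NG2-DsRed 1 of 14 was higher and 2 were lower. Jup, which encodes γ-catenin, was higher in both (log2 1.41, 0.51 to 2.49, and 1.94, 0.97 to 3.07). Across libraries Apc and Tnks were higher past 2-fold as well, and Csnk1e, Wtip and Btrc were among those lower. Axin1 was at 19.8 to 22.8 CPM in endothelial and 30.1 CPM in mural barcodes. Of 15 nuclear genes 4 were higher and 3 lower across libraries, and within NG2-DsRed 2 of 14 were higher and 1 was lower. Tcf7, a relative of Lef1, was at 25.9 and 50.8 CPM in endothelial and 0 in mural barcodes, at least 2.87-fold and 5.63-fold higher. Tcf7l2 was in all classes and leaned to mural barcodes (99.0 and 82.3 against 156 CPM). Ctnnbip1, which keeps β-catenin from binding TCF factors, was at 120.3 and 149 CPM in endothelial and 33.1 CPM in mural barcodes (log2 1.86, 1.01 to 2.87, and 2.17, 1.26 to 3.23). Tle3 was higher and Tle1 lower past 2-fold across libraries, and the other nuclear genes that were lower are not named.

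Secreted and membrane inhibitors were few. Of 19 genes 3 had enough UMIs across libraries. Dkk3 was at 1046 and 759 CPM in the intermediate barcodes and at 5.24 and 0 CPM in endothelial ones. Across libraries Dkk3 was also lower past 2-fold in endothelial than in mural barcodes. Tmem88, whose product binds Dishevelled, was at 93.2 and 49.1 CPM in endothelial and 0 in mural barcodes. The list of target and barrier genes leaned most to endothelial barcodes. Of its 15 genes with enough UMIs 9 were higher and 1 lower across libraries, with a median log2 ratio of 2.58 against -0.25 over all genes, and 9 of 13 were higher and 2 lower within NG2-DsRed, beside the shares over all genes given above. The list pools Wnt targets with genes of barrier endothelium, and the endothelial barcodes were picked by endothelial genes. Its lean is therefore no measure of pathway output. Slc2a1, the glucose transporter of barrier vessels, was at 1975 and 1123 CPM in endothelial and 33.1 CPM in mural barcodes. Abcb1a, the efflux pump P-glycoprotein, was at 1109 and 589 CPM and had 1 mural UMI. Sox17, a transcription factor induced by Wnt signals in vessels, was at 449 and 646 CPM and had no UMI in mural or intermediate barcodes. Foxq1 (430.4 and 522 CPM), Sox18 (223 and 336 CPM) and Sox7 (172 and 70.1 CPM) had at most 2 mural UMIs each. The genes named from this list were those past 2-fold with the most UMIs, and all were higher in endothelial barcodes. The 1 lower across libraries and the 2 lower within NG2-DsRed are not named.

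The genes with the pattern most like 3 of the members were searched among 9141 genes over the 5 sets of barcodes, by the Euclidean distance of log2(CPM + 10). For Lef1 these were Edn1 (distance 0.14), Cd74 (0.22) and Cyyr1 (0.32), all at 0 in mural barcodes. Ccn2 (0.44), Nes (0.47) and Lrrc32 (0.55) were nearest to Fzd4, and Ccdc91 (0.50), Gpalpp1 (0.51) and Asnsd1 (0.57) to Axin2. With 5 sets from 2 libraries these distances are descriptions only.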

How the data were processed

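Strial cells were captured in 2 droplet libraries, 1 per reporter line. The values are unnormalized UMI counts as the authors deposited them, and the matrix headers name software version 7.0.0 for Tie2-GFP (32285 genes) and 3.0.0 for NG2-DsRed (27998 genes). The submitters' processing notes name mm10 and bcl2fastq 2.20.0.422. Whether intronic reads were counted is not given in the sources used here. Members and marker lists were chosen with earlier results of these data known. All members are named. Pathway genes could be named with at least 20 UMIs in a class and past 2-fold, at most 6 per list, but only some of these are named. Partners of members and some further genes are named as well.

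All deposited barcodes entered, because most intermediate barcodes exceed the study's mitochondrial limit, and no doublet caller was run. Counts were summed per class and divided by all UMIs of the class. Levels have exact Poisson, shares Clopper-Pearson and ratios exact conditional binomial intervals at 95%, and a count of 0 allows 3 counts. That is less than the upper end of the Poisson interval, at 9.03 against 11.1 CPM for Lef1 in the mural barcodes of NG2-DsRed. Bounds on a fold keep the other class at its measured level, so they are not ends of the ratio intervals. Genes at 0 in a class whose bound lay on the other side of 1 were given no direction. Shares at 2000 UMIs are hypergeometric expectations. Levels are UMI counts of a 3′ platform without scaling for gene length, and they were not compared between genes. No test and no p-value were computed. Positions are from GENCODE for GRCm38, and 7 of 10 members had promoter windows searched. Python 3.11.15, numpy 2.4.6, scipy 1.17.1 and pandas 2.3.3 were used. The ratio, its interval, the 2-fold call and the thinning were checked on simulated counts. The ratios were simulated from Poisson draws without spread between barcodes, so counting error alone was checked. Genes with few counts were not among those simulated as changed, and the class rules were not simulated. The alternatives were the study's limits on barcodes, stricter classes, barcodes of 2 classes kept, endothelial barcodes with at most 1 mural gene, mean CPM of single barcodes, other denominators, a minimum of 20 UMIs, 1.5-fold and other thinning depths.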

Additional observations from a re-analysis of the deposited data

Results flagged for a closer look

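The log2 ratio of Axin2 in endothelial against intermediate barcodes was 0.83 in Tie2-GFP and -0.60 in NG2-DsRed, opposite in sign. With 1 library per line the difference was not tested, and the interval of the second ratio (-1.68 to 0.53) overlaps that of the first (0.20 to 1.51). The second rests on 20 endothelial and 13 intermediate UMIs, of which 12 were in the 16 barcodes over the mitochondrial limit (80.4 CPM) and 1 in the 7 within the study's limits (10.4 CPM), against 35.0 CPM in the endothelial barcodes.

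Barcodes that met the rule of no class entered no comparison but held UMIs of the members above the 3 that a count of 0 allows. In the 163 such barcodes of Tie2-GFP, with a median of 75.6% mitochondrial UMIs and 1533 UMIs, these were 190 UMIs of Ctnnb1, 14 of Nkd1, 10 of Lef1, 9 of Axin2, 8 of Fzd6, 6 each of Apcdd1, Lrp5 and Reck, and 5 of Fzd4. Lef1 was thus at 14.9 CPM (7.14 to 27.4) there against 516 CPM in the endothelial barcodes. In the 23 of NG2-DsRed they were 75 UMIs of Ctnnb1, 6 of Lef1, 5 of Nkd1 and 4 each of Fzd6 and Lrp5, with the 6 Lef1 UMIs in 2 barcodes.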

How the results depend on the processing

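No paired analysis was possible because each reporter line has 1 library, and leaving out a replicate could not be run for the same reason. Of 238 values that log2 ratios of members past 2-fold took under other settings, 0 turned direction. Many of these values could not turn. The minimum of 20 UMIs and the 1.5-fold setting leave a ratio unchanged. Keeping barcodes of 2 classes left the ratios of the Tie2-GFP endothelial barcodes unchanged too, as that library had 0 such barcodes. Other denominators move all ratios of a contrast by the same amount. Ratios left without a direction, such as that of Apcdd1 with the study's limits, were not counted. A bound on a class with no UMI is left out in this way once it crosses 0, so it could not turn either. Within 2-fold, the sign of Axin2 differed between libraries as given above. Other ratios within 2-fold changed sign under some settings. In endothelial against mural barcodes within NG2-DsRed these included Reck, at log2 0.22 and at -0.33 with stricter classes. They also included Fzd4 (-0.27) and Lrp5 (-0.11), which were at 0.05 and 0.45 for endothelial barcodes with at most 1 mural gene. Among the counts of members past 2-fold, most stayed within 1.5 times. In mural against intermediate barcodes 2 members were lower, Ctnnb1 and Axin2, and 1 with the study's limits, 1 with stricter classes and 1 with at least 20 UMIs. In endothelial against intermediate barcodes 1 was lower within Tie2-GFP and 2 within NG2-DsRed. Asking for 3 contractile genes gave 2 members lower in contractile barcodes in place of 0. Members found in at least 10% of barcodes were 10 in Tie2-GFP endothelial, 6 in mural and 4 in Tie2-GFP intermediate barcodes. At 1000 UMIs these were 3, 2 and 1, and at 2000 UMIs 2 in the intermediate barcodes, since fewer UMIs are drawn. The study's limits leave 6 intermediate barcodes in Tie2-GFP, where Apcdd1 has no bound. The mural barcodes hold 332347 UMIs, so a count of 0 allows up to 9.03 CPM there, and Axin2 and Apcdd1 lie below that on 2 and 1 UMIs.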
